A study of Arabis alpina with 12 samples.

Results

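Transcripts of 5 genes of vascular tissue and sucrose handling were followed in Arabis alpina, a perennial crucifer, in all 12 poly(A) RNA libraries of the study. They were SEOR1 (Aa_G451650h1), XIP1 (Aa_G17360h1), DOT5 (Aa_G164270h1), SUS6 (Aa_G303450h1) and SWEET12 (Aa_G143150h1), 5 of the 34220 genes in the count table, and all 5 were among the 19520 genes that passed a filter on low counts. The first 4 were taken by identifier, and SWEET12 as the gene that the authors' deposited tables pair with Arabidopsis AT5G23660. They had been chosen with differences between the genotypes in these same libraries already known, so those differences are given below as descriptions without a test.

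All plants were of the accession Pajares, grown in long days for 8 weeks before a cold treatment (vernalization) of 8 weeks in short days. Dissected shoot apices and dissected buds labelled V3 came from wild type and from the line Aatoe2_IL, in which AaTOE2 is affected, a gene for a transcription factor related to APETALA2. Each of the 4 groups held 3 libraries. The sources used here do not give the lesion. With a single such line, other differences between Aatoe2_IL and wild type cannot be told apart from an effect of the gene. Nothing in the labels says that the replicates came from separate plants, and the spread that p-values rest on may then be partly technical.

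Sugars leave the leaf mainly as sucrose. In Arabidopsis, SWEET proteins such as SWEET12 let sucrose out of phloem parenchyma cells, SUC carriers then load it into the sieve element and companion cell complex, and sucrose synthases such as SUS6 cleave it where it is used. Sieve elements, the conducting cells of the phloem, are filled with protein filaments built from SEOR proteins, while receptor kinases, peptides and transcription factors set where phloem, procambium and xylem form. A growing apex or bud imports sugar through such strands.

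Each library had between 9411616 and 12309478 reads in genes. With levels in CPM, that is read counts scaled to the library total after TMM normalization, 1 CPM stood for 9.15 to 12.8 reads. Reads outside genes made up 13.4% to 21.5% of those counted, with the highest share in wild-type bud replicate 1. Gene lengths were not used here, so levels are compared between libraries for 1 gene and never between genes. The shoot meristem, epidermis and cell division markers had no identifier with a name, and the labelled tissues could not be checked against them.

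SEOR1 encodes a filament protein of sieve elements. It stood at 28.9, 32.7 and 33.1 CPM in wild-type apex replicates 1, 2 and 3, at 24.8, 23.2 and 16.1 CPM in Aatoe2_IL apices, at 7.56, 3.23 and 4.70 CPM in wild-type buds and at 16.2, 11.1 and 16.0 CPM in Aatoe2_IL buds. Wild-type apices were highest and wild-type buds lowest, and only the neighbouring groups of Aatoe2_IL apices and Aatoe2_IL buds overlapped. In apices wild type had a mean of 31.6 ± 2.29 CPM and Aatoe2_IL one of 21.4 ± 4.64 CPM (SD, n = 3), a log2 fold change of -0.56 (SE 0.21). The bud means were 5.16 ± 2.20 CPM for wild type and 14.4 ± 2.90 CPM for Aatoe2_IL (SD, n = 3), a log2 fold change of 1.47 (SE 0.26). In bulk tissue, fewer cells of a type and less RNA per cell cannot be told apart, here or for any gene below.

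XIP1 encodes a leucine-rich repeat receptor kinase, also known as CEPR1, that binds CEP peptides in Arabidopsis and keeps lignified cells out of the phloem there. Its level was 19.0, 25.8 and 23.8 CPM in wild-type apices, 14.8, 14.9 and 12.9 CPM in Aatoe2_IL apices, 2.52, 3.43 and 1.90 CPM in wild-type buds and 8.28, 6.63 and 7.87 CPM in Aatoe2_IL buds. No 2 groups overlapped, and the order ran from wild-type apices through Aatoe2_IL apices and Aatoe2_IL buds to wild-type buds. This order without overlap between neighbours held for 1 of the 5 genes and for 0.118% of all genes tested. The log2 fold change of Aatoe2_IL against wild type was -0.69 (SE 0.17) in apices, from a mean of 22.9 ± 3.46 to 14.2 ± 1.09 CPM, and 1.53 (SE 0.22) in buds, from 2.62 ± 0.771 to 7.59 ± 0.860 CPM (SD, n = 3).

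SUS6 encodes a sucrose synthase, which in Arabidopsis lies in the phloem and serves callose formation at sieve plates. It was measured at 11.5, 10.4 and 12.4 CPM in wild-type apices, against 7.39, 9.99 and 11.05 CPM in Aatoe2_IL apices, 2 groups that overlapped. Buds gave 0.908, 1.25 and 1.00 CPM in wild type, from 9 to 12 reads a library, and 4.84, 4.07 and 4.70 CPM in Aatoe2_IL. Each Aatoe2_IL bud library thus lay above each wild-type bud library and below each apex library. The log2 fold change between the genotypes was -0.27 (SE 0.18) in apices and 2.095 (SE 0.25) in buds, where the mean went from 1.05 ± 0.177 to 4.54 ± 0.409 CPM (SD, n = 3).

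DOT5 encodes a zinc finger protein of the WIP family, named in Arabidopsis after a defect in the pattern of leaf veins. Apices held 6.01, 4.32 and 9.04 CPM in wild type and 8.61, 10.4 and 10.6 CPM in Aatoe2_IL, with an overlap and a log2 fold change of 0.61 (SE 0.27). In wild-type buds DOT5 had 2, 0 and 2 reads in replicates 1, 2 and 3, and in Aatoe2_IL buds 22, 29 and 15 reads. All Aatoe2_IL bud libraries therefore lay far above the wild-type ones and below every apex library. The summed reads, 66 against 4, gave a ratio of 16.8 (exact 95% interval 6.26 to 63.4, which covers counting error only), and the mean rose from 0.134 ± 0.116 to 2.25 ± 0.563 CPM (SD, n = 3). Unlike SEOR1, XIP1 and SUS6, DOT5 had a higher mean in Aatoe2_IL than in wild type in apices too.

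SWEET12 encodes a sucrose exporter of the phloem parenchyma and had the opposite order between genotypes in buds. It stood at 3.67, 7.35 and 2.45 CPM in wild-type apices, whereas Aatoe2_IL apices had 1.22, 0.102 and 0.190 CPM, from 14, 1 and 2 reads in replicates 1, 2 and 3. Wild-type buds gave 0.605, 0.416 and 0.400 CPM and Aatoe2_IL buds 0.108, 0 and 0.219 CPM, from 6, 4 and 4 reads against 1, 0 and 2. The genotypes did not overlap in either tissue, whereas Aatoe2_IL apices overlapped with both groups of buds. The apex means were 4.49 ± 2.55 CPM for wild type and 0.503 ± 0.620 CPM for Aatoe2_IL (SD, n = 3), a log2 fold change of -3.06 (SE 0.61). Its size rested on Aatoe2_IL apex replicate 1, which held 14 of the 17 reads of its group, and was -4.81 without that library. In buds 14 reads against 3 gave a ratio of wild type over Aatoe2_IL of 4.59 (exact 95% interval 1.28 to 24.9), on the log2 scale a fitted -2.07 (SE 1.15), which became -2.96 without Aatoe2_IL bud replicate 3 and -1.47 without Aatoe2_IL bud replicate 2.

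**Figure D1:**
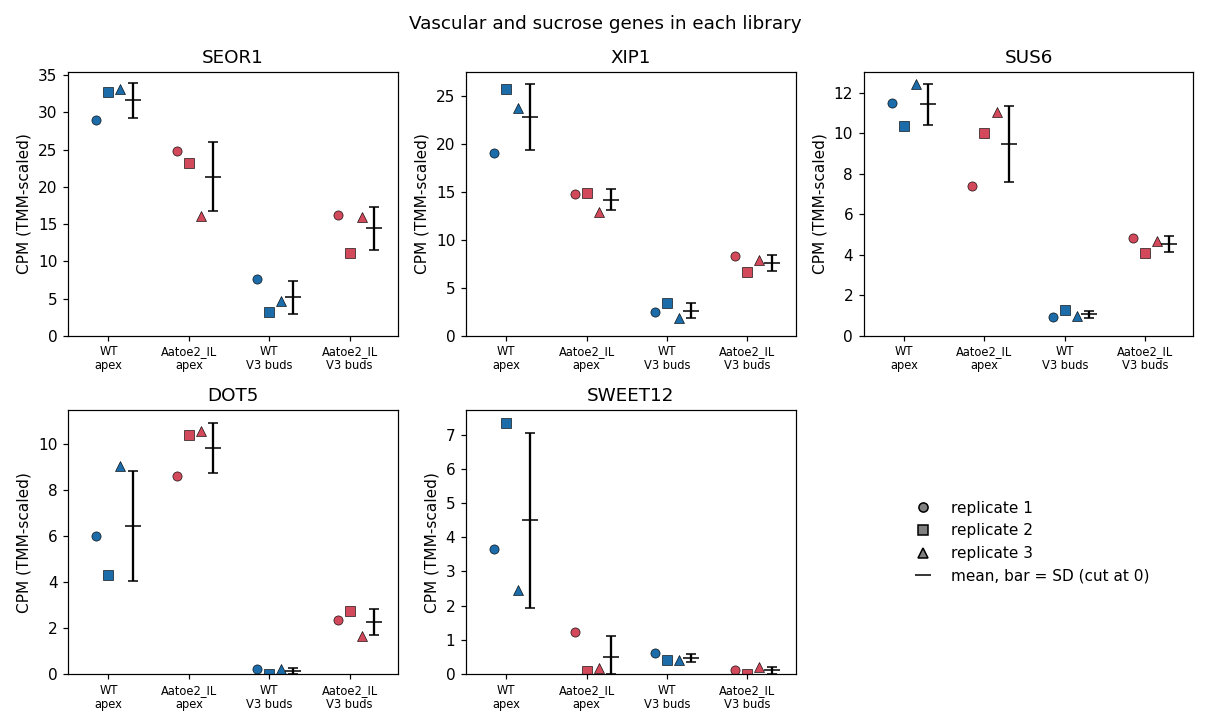
Level of each of the 5 genes in CPM (vertical axis, linear from 0) in the 12 libraries, by group on the horizontal axis. Points are libraries, with their shape giving the replicate number and blue and red the wild type and Aatoe2_IL, and dashes with bars are the mean and SD of 3 libraries. SEOR1, XIP1, SUS6 and DOT5 lay lowest in wild-type buds, at means of 5.16, 2.62, 1.05 and 0.134 CPM, whereas SWEET12 was highest in wild-type apices, at 4.49 CPM, and below 1.3 CPM elsewhere.

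Between genotypes, 4 of the 5 genes were thus higher in Aatoe2_IL buds without overlap, as were 11.4% of all genes tested, and 1 was lower, as were 10.8%. In apices 3 of the 5, SEOR1, XIP1 and SWEET12, were lower without overlap (10.8% of all genes tested) and none was higher (9.95%). SEOR1 and XIP1 combined both, lower in apices and higher in buds of Aatoe2_IL, as did 0.763% of all genes tested. Since the genes were chosen on these differences, nothing is read from the counts. In the authors' deposited tables SEOR1, XIP1, SUS6 and DOT5 stand as higher in Aatoe2_IL buds, with folds of 2.81, 2.91, 4.33 and 16.89. SWEET12 stands in the authors' deposited tables as lower in Aatoe2_IL apices, with a fold of 0.113.

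**Figure D2:**
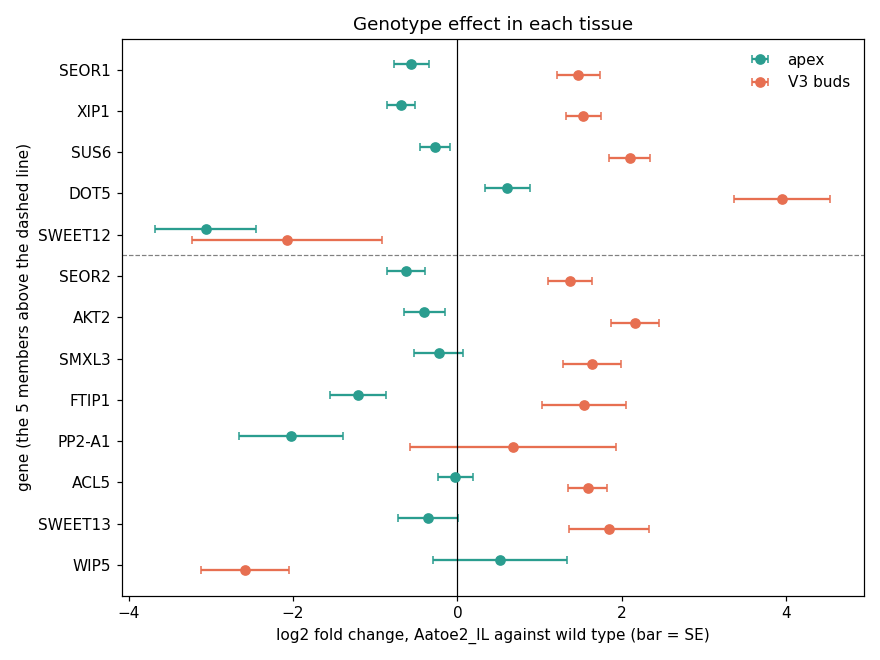
Fitted log2 fold change of Aatoe2_IL against wild type (horizontal axis, bars are SE) in apices and V3 buds for the 5 genes, above the dashed line, and for 8 other vascular and sugar genes with a name below it. For SEOR1, XIP1 and SUS6 the apex value lies left of 0, at -0.56, -0.69 and -0.27, and the bud value right of it, at 1.47, 1.53 and 2.095, whereas both SWEET12 values lie left of 0.

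Apices and buds were then compared over both genotypes together. This contrast averages the difference between V3 buds and apices over wild type and Aatoe2_IL. It does not use the differences between genotypes through which the genes were chosen. It was tested for the 4 genes that passed the filter in both tissues. Genes and tests were chosen with earlier results of these data known, however, so its p-values are not free of that choice. In V3 buds SEOR1, XIP1, DOT5 and SUS6 lay below their apex level, against 13.3% of all genes tested that passed in either direction and 6.95% that were lower in buds. Among the 442 tested genes with a name, which like these 4 come from the authors' lists of genotype differences, 39.4% passed and 24.2% were lower. On the log2 scale DOT5 fell by 3.79 (SE 0.30, edgeR adjusted p = 7.66e-07), SUS6 by 2.24 (SE 0.15, edgeR adjusted p = 2.19e-07) and XIP1 by 2.01 (SE 0.14, edgeR adjusted p = 2.12e-07). SEOR1 fell by 1.59 (SE 0.17, edgeR adjusted p = 1.25e-05). SWEET12 passed the filter only through wild-type apices, where it was highest, so its value of -2.71 (SE 0.63) is given without a test.

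The libraries followed this order to different degrees. For XIP1, SUS6 and DOT5 all 6 bud libraries lay below every apex library, an arrangement shown by 3% of all genes tested. For SEOR1 this held for 5 of the 6 bud libraries, since Aatoe2_IL bud replicate 1 at 16.24 CPM lay above Aatoe2_IL apex replicate 3 at 16.09 CPM. For SWEET12 it held for 1 of the 6, because Aatoe2_IL apices were themselves low. Without Aatoe2_IL apex replicate 1 the SWEET12 value was -1.84.

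Within each genotype the size of the tissue difference was read as a description. In wild type all 5 genes were lower in buds without overlap (14.2% of all genes tested), by a log2 fold change of -5.46 (SE 0.50) for DOT5, -3.43 (SE 0.23) for SUS6, -3.21 (SE 0.63) for SWEET12, -3.12 (SE 0.20) for XIP1 and -2.61 (SE 0.25) for SEOR1. In Aatoe2_IL the same values were -2.12 (SE 0.31), -1.06 (SE 0.19), -2.22 (SE 1.12), -0.91 (SE 0.18) and -0.57 (SE 0.23), and 3 of the 5 genes, XIP1, DOT5 and SUS6, did not overlap (10.8% of all genes tested). The mean in wild-type buds amounted to 16.4% of that in wild-type apices for SEOR1, 11.4% for XIP1, 9.21% for SUS6 and 2.07% for DOT5. Within Aatoe2_IL the buds had 67.5%, 53.5%, 47.9% and 22.8% of the apex mean for these 4 genes, so that the tissues lay closer together. For SWEET12 the Aatoe2_IL tissue value moved from -2.22 to -0.46 without Aatoe2_IL apex replicate 1 and to -3.11 and -1.62 without Aatoe2_IL bud replicates 3 and 2, and with 3 reads in Aatoe2_IL buds it gives no firm size.

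The difference between the genotype effects, that in buds minus that in apices, was 3.34 (SE 0.68) for DOT5, 2.37 (SE 0.31) for SUS6, 2.22 (SE 0.27) for XIP1 and 2.03 (SE 0.33) for SEOR1 on the log2 scale. For SWEET12 it was 0.99 (SE 1.74), smaller than its error, and it ranged from 0.09 without Aatoe2_IL bud replicate 3 to 2.74 without Aatoe2_IL apex replicate 1, with 1.58 without Aatoe2_IL bud replicate 2. The 4 other genes kept their sign and moved by less than 1.5-fold in every comparison when single libraries were left out.

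**Figure D3:**
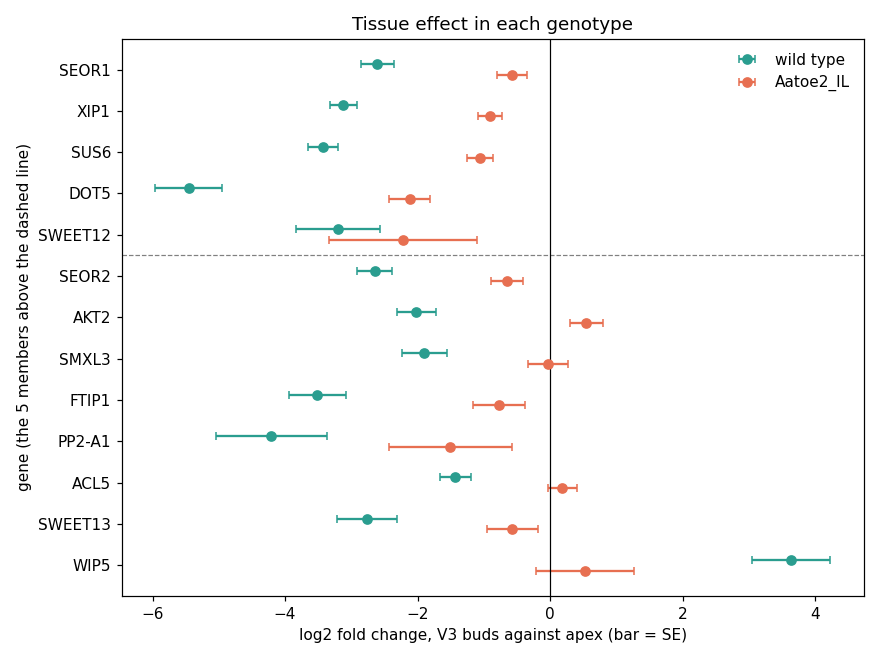
Fitted log2 fold change of V3 buds against apices (horizontal axis, bars are SE) in wild type and in Aatoe2_IL for the 5 genes, above the dashed line, and for 8 other named genes. For the 5 genes both values lie left of 0, with the wild-type value farther from it, from -5.46 for DOT5 to -2.61 for SEOR1.

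Among themselves the 5 genes fell apart by how alike their profiles were. Likeness was taken as the root mean square difference of gene-centred log2 CPM over the 12 libraries, a description with no test. XIP1 and SUS6 were closest, at 0.32, followed by SEOR1 and XIP1 at 0.41 and SEOR1 and SUS6 at 0.52. DOT5 stood 0.84 from SUS6 and over 1 from SEOR1 and XIP1, at 1.13 and 1.07, and SWEET12 lay 1.41 or more from each of the others, with 2.26 from DOT5.

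Like genes were sought only among the 442 tested genes with a name, all from the authors' lists of genotype differences. Among these named genes, those most like SEOR1 were HAM4, a GRAS family gene of meristem maintenance, at 0.22, ENODL9 at 0.26 and the ion channel gene CNGC4 at 0.28. Those most like XIP1 were SUS6, SEOR2 at 0.32 and AT4G15960 at 0.38, and those most like SUS6 were XIP1, MVQ4 at 0.34 and AT4G15960 at 0.36. DOT5 had AT3G05858 at 0.53, SPL5, a flowering promoter, at 0.56 and AT3G12710 at 0.57. The genes most like SWEET12 were JAL22 at 0.52, AT1G67870 at 0.64 and AT5G14360 at 0.76, and all 3 had lower fitted values in Aatoe2_IL in both tissues, at -1.99, -2.25 and -1.81 in apices and -0.78, -1.59 and -1.49 in buds on the log2 scale. HAM4, ENODL9 and CNGC4 had values of -0.35, -0.37 and -0.30 in apices and 1.40, 1.43 and 1.65 in buds. Since likeness was taken over these same libraries, directions shared with SWEET12 or SEOR1 follow from the choice and are no separate result.

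Other genes of phloem, xylem, vein patterning, sugar transport and sucrose metabolism and of CEP signalling were looked up in lists of 135 genes in all, of which 130 were not among the 5. Of these 130, 9 had an identifier with a name, each because the authors had listed it as different between the genotypes in these samples, and 8 passed the filter. Their genotype and interaction counts, medians and single p-values, here and below, are therefore not independent evidence of a direction. SEOR2, AKT2, SMXL3, ACL5 and SWEET13 had been listed for their rise in Aatoe2_IL buds. In buds 5 of the 8 rose in Aatoe2_IL by edgeR's test, and WIP5 was called lower but passed the filter only through the group where it was high. The background was 2.98% of all genes tested higher and 1.97% lower (4.95% together), and 34.6% and 17.9% (52.5% together) of the 442 tested genes with a name. Their median log2 fold change in buds was 1.56, beside 0.94 for genes with a name and -0.01 for all genes tested. In apices edgeR called none of the 8 at a Benjamini-Hochberg adjusted p under 0.05, against 1.1% of all genes tested (0.292% higher, 0.809% lower) and 15.2% of those with a name (3.17% higher, 12% lower). DESeq2 called 0 of the 8, and 596 of all genes tested, and the median of the 8 was -0.38. FTIP1, PP2-A1 and SEOR2 had an unadjusted edgeR p under 0.05. No share of all genes was taken at this looser cut, and PP2-A1 passed the filter only through wild-type apices, so nothing is read from it. The genotype effect was higher in buds than in apices for 4 of the 8 by edgeR's interaction test and lower for none. The edgeR background was 1.03% of all genes tested (0.763% higher, 0.272% lower) and 15.4% of those with a name (12.9% higher, 2.49% lower). DESeq2 called 6 of the 8, and 576 of all genes tested. FTIP1, among both the 4 and the 6, passed the filter only through apices, where it was highest, so its call is a description. The tissue effect averaged over the genotypes was read only for the 5 of the 8 that passed the filter in both tissues, SEOR2, AKT2, SMXL3, ACL5 and SWEET13, and all 5 were lower in buds by this test. FTIP1 and PP2-A1 passed the filter only through apices and WIP5 only through wild-type buds, the groups where they were highest, so their tissue values are descriptions. In this comparison 6.95% of all genes tested were lower and 6.37% higher, and of those with a name 24.2% and 15.2%, or 39.4% together.

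In the phloem list 6 of 24 genes had a name and passed the filter. Besides SEOR1 they were SEOR2, the partner of SEOR1 in sieve element filaments, AKT2, a potassium channel gene of the phloem, SMXL3, which promotes phloem formation, FTIP1, which helps the flowering signal FT enter sieve elements, and PP2-A1, a phloem lectin gene. SEOR2 (Aa_G451660h1) stood at 41.1 to 45.0 CPM in wild-type apices, 19.9 to 35.1 in Aatoe2_IL apices, 3.90 to 9.48 in wild-type buds and 12.98 to 20.9 in Aatoe2_IL buds, the same order of groups as SEOR1. It rose in Aatoe2_IL buds, by 1.37 in log2 (SE 0.27, edgeR adjusted p = 0.00945), and had -0.62 in apices (edgeR adjusted p = 0.194). SEOR1 and SEOR2 are related genes, and reads shared between them could move both counts. AKT2 rose in Aatoe2_IL buds by 2.16 (SE 0.29, edgeR adjusted p = 0.000822), from 0.833 to 2.12 CPM in wild type to 5.70 to 8.31 CPM, which lay within or above the 3.83 to 6.65 CPM of the apex libraries. The authors had listed both SEOR2 and AKT2 for this rise, so these bud p-values are no independent support.

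SMXL3 rose in Aatoe2_IL buds by 1.64 (SE 0.35, edgeR adjusted p = 0.0151), a call lost without wild-type bud replicate 2 (1.55, adjusted p = 0.0733) and without Aatoe2_IL bud replicate 2 (1.51, adjusted p = 0.0626). Over all its alternatives the edgeR and DESeq2 adjusted p of SMXL3 in buds ran from 0.000121 to 0.0733, and its log2 fold change was 2.36 without wild-type bud replicate 1. FTIP1 had a log2 fold change of 1.54 in buds (edgeR adjusted p = 0.101) and -1.21 in apices (edgeR adjusted p = 0.0988). PP2-A1 passed the filter only through wild-type apices, where it was highest, so its apex value of -2.03 is a description. Aatoe2_IL apex replicate 1 held 16 of the 26 PP2-A1 reads of its group, and the value without that library was -2.73. The bud groups of PP2-A1 held 5 and 8 reads and give no direction. The median log2 fold change of the 6 phloem genes was -0.59 in apices and 1.51 in buds, PP2-A1 included. All 6 have a name only because the authors listed them for differences between the genotypes, so no direction of phloem genes is read from these medians. Averaged over the genotypes SEOR2 was lower in buds by a log2 fold change of -1.65 (edgeR adjusted p = 1.54e-05), SMXL3 by -0.96 (edgeR adjusted p = 0.0107) and AKT2 by -0.73 (edgeR adjusted p = 0.0187). The SMXL3 average came from wild type, where the bud mean was 26.7% of the apex mean. In Aatoe2_IL the SMXL3 bud mean was 97.6% of the apex mean and the tissues overlapped. For AKT2 the direction turned in Aatoe2_IL, where all bud libraries lay above all apex libraries and the bud mean was 146% of the apex mean, against 24.5% in wild type. The AKT2 call in the average was lost without wild-type bud replicate 2 (-0.59, adjusted p = 0.0503) and without Aatoe2_IL apex replicate 2 (-0.67, adjusted p = 0.0502), and its adjusted p over all alternatives ran from 0.00524 to 0.0503. FTIP1 and PP2-A1 had -2.14 and -2.86 in this average, without a test.

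In the list of xylem and procambium 2 of 45 genes had a name, XIP1 and ACL5, which makes thermospermine, a polyamine that restrains xylem formation in Arabidopsis. ACL5 stood at 10.2 to 13.7 CPM in wild-type apices, 8.76 to 12.7 in Aatoe2_IL apices, 3.50 to 5.41 in wild-type buds and 9.76 to 16.0 in Aatoe2_IL buds. Wild-type buds alone stood apart from the other groups, which overlapped. It rose in Aatoe2_IL buds by 1.59 (SE 0.24, edgeR adjusted p = 0.00170) and had -0.03 in apices (edgeR adjusted p = 0.967). Between the tissues it had an average of -0.62 (edgeR adjusted p = 0.0165), with the bud mean at 37.0% of the apex mean in wild type but at 114% in Aatoe2_IL, where the tissues overlapped. The call in the average was lost without both Aatoe2_IL replicate 1 libraries (-0.59, adjusted p = 0.0675, within a range of 0.00268 to 0.0675). In the vein list 2 of 13 genes had a name, DOT5 and WIP5, a gene of the same zinc finger family. WIP5 went the other way from DOT5, with 75 bud reads for wild type against 12 for Aatoe2_IL, a log2 fold change of -2.59 (SE 0.54). It passed the filter only through wild-type buds, where it was highest, and the authors had listed it for this difference, so the value is a description. In apices WIP5 had 7 and 9 reads per group.

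Among 29 genes of sugar export and uptake 3 had a name, SWEET12, SWEET13 and SWEET10. SWEET13, another sucrose exporter gene, stood at 5.41 to 9.85 CPM in wild-type apices, 3.87 to 6.87 in Aatoe2_IL apices, 0.300 to 2.22 in wild-type buds and 3.23 to 4.48 in Aatoe2_IL buds. It rose in Aatoe2_IL buds by 1.84 (SE 0.49, edgeR adjusted p = 0.0414), where SWEET12 was lower, and was lower in buds when averaged over the genotypes, by a log2 fold change of -1.67 (edgeR adjusted p = 0.00152). Its bud call was lost without any 1 of 7 libraries, namely replicate 3 of the apices of either genotype, wild-type bud replicates 2 and 3 and Aatoe2_IL bud replicates 1, 2 and 3, with adjusted p up to 0.157 and down to 0.00197 over all alternatives. Without wild-type bud replicate 1, which held 22 of the 31 reads of its group, the value was 3.01 in buds and -2.25 between the tissues. SWEET10 did not pass the filter. Wild-type apices had 2, 1 and 6 of its reads, Aatoe2_IL apices had 10, 25 and 9, and all bud libraries had 0, and its fold in the authors' deposited tables was 5.73 in apices. No gene of sucrose synthesis and cleavage other than SUS6, 1 of 19, and none of the CEP list other than XIP1, 1 of 7, had a name.

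**Figure D4:**
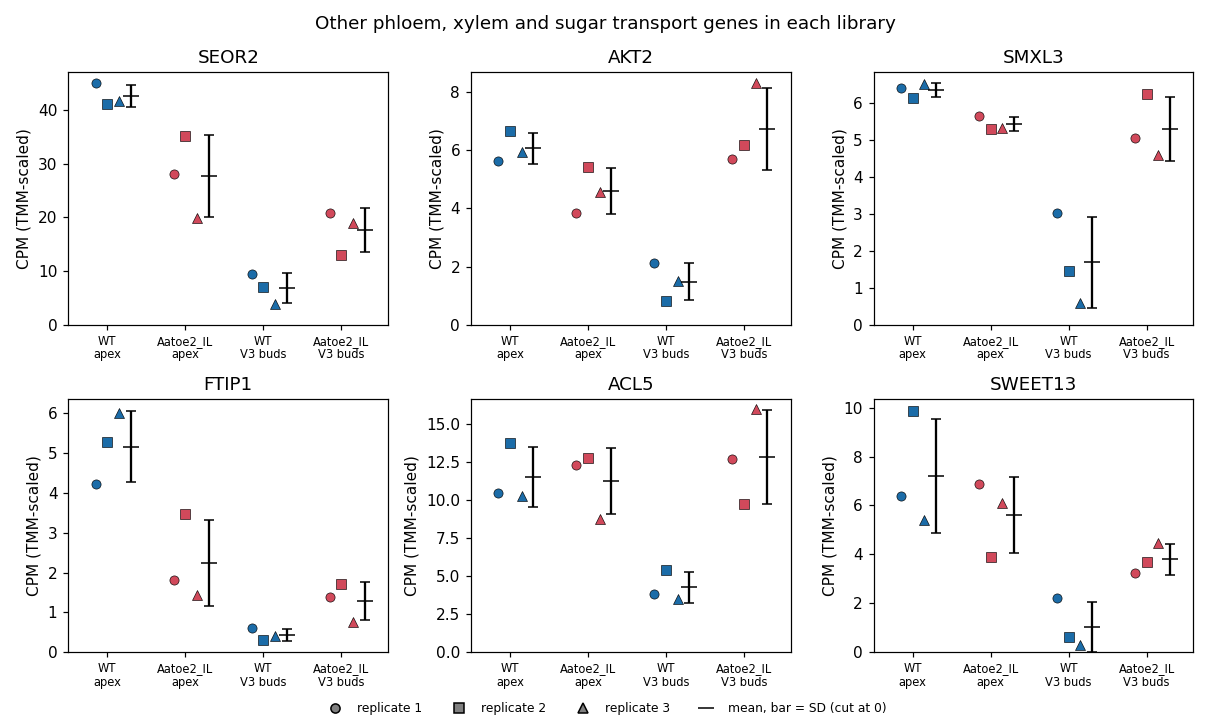
Level in CPM (vertical axis, linear from 0) of SEOR2, AKT2, SMXL3, FTIP1, ACL5 and SWEET13 in the 12 libraries by group, with replicates as point shapes and the mean and SD of 3 libraries as dashes with bars. In each panel the wild-type buds lie lowest, for ACL5 at 3.50 to 5.41 CPM and for AKT2 at 0.833 to 2.12 CPM.

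Within wild-type buds replicate 1 was the highest of the 3 libraries for 10 of 14 genes, that is the 5 genes, the 8 others and LHCB1.3. The share of all genes tested for which it was highest was not taken, so nothing is read from this count. Wild-type bud replicate 1 also had the highest share of reads outside genes, 21.5%. Without this library the log2 fold change of SEOR1 between the genotypes in buds was 1.85. LHCB1.3, the 1 of 6 green leaf genes with a name, encodes a light-harvesting protein and moved with the bud values. It stood at 1690 to 1821 CPM in wild-type buds and 3034 to 4641 CPM in Aatoe2_IL buds, and at 1456 to 2210 CPM and 2215 to 2996 CPM in apices of the same genotypes, and rose in Aatoe2_IL buds by 1.12 (SE 0.18, edgeR adjusted p = 0.00243). LHCB1.3 too has a name because the authors had listed it for this rise, so the p-value is no independent support. Unlike SEOR1, XIP1, DOT5 and SUS6 it did not pass between the tissues averaged over the genotypes (0.18, edgeR adjusted p = 0.411). The part of leaf or vascular tissue content in the bud values was not tested.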

How the data were processed

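Deposited read counts per gene (whole numbers, not normalized) of 12 libraries were used. They came from strand-specific single reads of 100 bp, per the labels' protocols. STAR, HTSeq 0.5.4p1, DESeq and DESeq2 are named without roles in the submitters' processing notes. Neither genome build nor annotation nor strand setting is given in the sources used here, and overlapping or antisense genes are uncertain. The 5 counters of reads outside genes entered neither library sizes nor tests. Arabidopsis names come from the authors' 4 tables of genes that differ between genotypes, cut at fold 2 and adjusted p-value 0.05 per the file headers (626 genes, 445 with a name). These deposited tables hold the authors' group means of normalized counts (a signal per gene), the fold as the ratio of Aatoe2_IL to wild type and its log2 value. The authors' p-value column was not printed.

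The edgeR 4.0.16 quasi-likelihood F test in R 4.3.3, with TMM scaling and filterByExpr at its default settings, was fitted to all 12 libraries in 4 groups (8 residual degrees of freedom, common biological coefficient of variation 0.130). P-values were adjusted by Benjamini and Hochberg's method over all 19520 tested genes, with a threshold of 0.05. Fold changes are fitted log2 values, and SE is the absolute log2 fold change over the square root of F, approximate at few reads. Ratios of few reads have exact binomial 95% intervals for counting error only. Gene lists, members and tests were chosen with earlier results of these data known. Named were the 5 genes, up to 6 named genes per list and the 3 named genes most like each member (log2 CPM with a prior count of 2). None of the 5 has a second copy in the table. Alternatives were DESeq2 1.42.0, other scalings, no filter, replicate blocks, a covariate, smaller fits and leaving out libraries. The model fit was tested on simulated data.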

Additional observations from a re-analysis of the deposited data

Results flagged for a closer look

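SEOR1 and XIP1 were lower in every Aatoe2_IL apex library and higher in every Aatoe2_IL bud library than in wild type, as were 0.763% of all genes tested. The difference between these genotype effects, 2.03 for SEOR1 and 2.22 for XIP1 on the log2 scale, was not tested, because SEOR1 and XIP1 were chosen on it. The pattern was not particular to them, since SEOR2, FTIP1, SMXL3 and AKT2 showed it too without overlap.

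Among the 8 other vascular and sugar genes edgeR's interaction test passed for 4. These 4 have a name only because the authors listed them as different between the genotypes in these libraries, that is for part of the same contrast. The test is therefore no independent support. The difference was 2.57 for AKT2 (SE 0.38, edgeR adjusted p = 0.00811), 1.99 for SEOR2 (SE 0.36, edgeR adjusted p = 0.0204), 1.61 for ACL5 (SE 0.32, edgeR adjusted p = 0.0295) and 2.75 for FTIP1 (SE 0.61, edgeR adjusted p = 0.0480), each with a higher effect in buds, as had 0.763% of all genes tested and 12.9% of those with a name. The FTIP1 call is read as a description, since the gene passed the filter only through apices, where it was highest. In buds FTIP1 had 13 reads in wild type and 38 in Aatoe2_IL. The AKT2 call held without each library in turn. Those of SEOR2, ACL5 and FTIP1 were lost without 6, 6 and 9 of the 12 libraries, with adjusted p over all alternatives of up to 0.0786, 0.0927 and 0.146. For all 3 these included wild-type apex replicates 2 and 3, Aatoe2_IL apex replicate 3 and Aatoe2_IL bud replicates 1 and 3. Wild-type bud replicate 2 was a further one for SEOR2 and FTIP1, wild-type bud replicate 3 for ACL5 and FTIP1, and Aatoe2_IL apex replicate 1 and Aatoe2_IL bud replicate 2 for FTIP1.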

How the results depend on the processing

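No value of the 5 genes changed sign in 608 recomputed values under 21 alternatives, and 17 moved by more than the spread between replicates. The fall between the tissues averaged over the genotypes kept its call in every alternative for SEOR1, XIP1, DOT5 and SUS6. For SWEET12, which passed the filter only through wild-type apices, the value (-2.71) ranged from -3.15 to -1.84 when single libraries were left out and was -1.85 without both Aatoe2_IL replicate 1 libraries. The cause was not tested. Values of PP2-A1 in buds and ACL5 in apices, neither called, changed sign. PP2-A1 ranged from -1.54 (without Aatoe2_IL bud replicate 3) to 2.20 over single libraries left out. ACL5 ranged from -0.12 to 0.13, being above 0 without wild-type apex replicate 2 (0.13) or Aatoe2_IL apex replicate 3 (0.12), and was 0.071 when the percentage of reads outside genes was a covariate.

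Counts of genes called by edgeR were 215 for genotype in apices, 967 in buds, 202 for the interaction and 2600 for tissue averaged over genotypes. With single libraries left out they ranged from 35 (without wild-type apex replicate 2) to 698 (without Aatoe2_IL apex replicate 1), from 410 (without Aatoe2_IL bud replicate 3) to 1044, from 40 (without replicate 3 of either group of apices) to 391 (without wild-type apex replicate 1), and from 1989 to 2639. Other single libraries that moved a count by over 1.5 times were, in apices, wild-type apex replicates 1 (360) and 3 (116), wild-type bud replicate 2 (125) and Aatoe2_IL apex replicates 2 (41) and 3 (47), in buds, replicate 2 of wild type (437) and of Aatoe2_IL (526), and for the interaction, wild-type apex replicate 2 (42), wild-type bud replicates 2 (45) and 3 (118), Aatoe2_IL apex replicate 2 (91) and Aatoe2_IL bud replicates 1 (61) and 3 (45). Without both Aatoe2_IL replicate 1 libraries 835 and 43 genes passed in apices and for the interaction. DESeq2 gave 596 and 576 in these comparisons, no filter 400 in apices, fits of 1 tissue 129 in apices and 621 in buds, and the covariate 2134 in buds and 409 for the interaction.

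Replicate numbers were no sure pairing: same-numbered apex and bud libraries deviated together with correlations from 0.24 to 0.42 except wild-type replicate 2 (0.06). With the number as a replicate block within genotype 1986 genes passed for the interaction and 4431 for tissue, and with a block over all groups 314, 1365, 253 and 2846 passed in the order above. SEOR1, XIP1, DOT5 and SUS6 kept their tissue call under both blocks. The block within genotype also made the interaction a call for SMXL3 (edgeR adjusted p = 0.00712 against 0.0742, within a range of 0.00386 to 0.184) and SWEET13 (0.00862 against 0.106, within a range of 0.00862 to 0.265). In Aatoe2_IL, but not in wild type, every apex library correlated best with the bud library of its own number. At 9.15 to 12.8 reads per CPM, DOT5 in wild-type buds and SWEET12 outside wild-type apices rest on few reads.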
